A study of Mus musculus with 8 samples.

Results

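The interferon regulatory factors (IRFs) are a family of transcription factors that bind DNA at short GAAA repeats. The genes described here were the 8 members Irf1, Irf2, Irf3, Irf4, Irf5, Irf7, Irf8 and Irf9, taken by gene name from the 20432 loci that are present in both deposited tables.

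The samples were MC38 cells, a mouse colon adenocarcinoma line, of 2 genotypes: control, labelled wild type, and DENR KO, which lacks the density regulated re-initiation and release factor that helps ribosomes start again after a short upstream reading frame. Each genotype was measured untreated and after IFNγ at 20 ng/ml for 4 h, with 2 samples in each of the 4 groups. Per the study's methods, MC38 lines of both genotypes were made with lentivirus carrying Cas9 and sgRNAs, and whether a line was 1 clone is not given in the sources used here. The study calls its IFNγ-treated samples independent, and the labels number the samples without saying whether they were separate cultures, so the p-values measure only the spread between these samples. Poly-A RNA was sequenced, and levels are given as normalized counts, that is, reads on a gene over the size factor of that sample.

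Between 17369020 and 18403790 reads per sample fell on genes, and the size factors ran from 0.976 to 1.02. Denr itself was lower in DENR KO cells in both tables, at 67.0% of control with IFNγ (log2 fold change −0.58 ± 0.071 SE, adjusted p = 8.2e-06) and at 67.7% untreated (−0.56, adjusted p = 1.1e-04). The cells had low counts of epithelial markers, which summed to 12.7 to 27.5 normalized counts per sample over 8 genes with Epcam and Cdx2 not listed, and high counts of 5 fibroblast markers, which summed to 18474 to 23238. With IFNγ the fibroblast sum was 18474 to 19237 in DENR KO cells and 20421 to 20456 in control cells, and untreated it was 20950 to 21589 and 22262 to 23238. With IFNγ, Dcn had means of 4490 in DENR KO and 6218 in control cells, while Col1a2 (9822 and 9746), Col3a1 (2406 and 2393) and Pdgfra (1792 and 1723) were at like levels in both, and their part in the results was not tested. Of the markers of blood cells that also use Irf4 and Irf8, Ptprc, the CD45 gene, had group means of at most 1.53 where it was listed. Csf1r had at most 3.54, and Cd3e and Flt3 were not listed. Others were detected, with group means of 369 to 466 for Cd14, 265 to 338 for Zbtb46, 51.8 to 73.2 for Cd68 and 9.81 to 37.0 for Xcr1. Of 9 macrophage and myeloid markers, 2 had a mean of at least 10 in each group. Of 5 dendritic cell markers it was 2, or 1 in DENR KO cells with IFNγ.

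IFNγ signals through JAK1 and JAK2 to STAT transcription factors, whose dimers bind the GAS element (TTCNNNGAA) in target promoters. Irf1 is an early target of this pathway, and its protein then binds interferon-stimulated response elements (ISRE, GAAANNGAAA) to switch on later genes for antigen presentation, chemokines and PD-L1. The family divides by role. IRF1 and IRF8 are made in response to IFNγ, IRF2 competes with IRF1 for the same sites, IRF9 is part of the ISGF3 complex, IRF3, IRF5 and IRF7 are switched on by phosphorylation below nucleic acid sensors and Toll-like receptors, and IRF4 is mainly a lymphocyte factor.

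Both elements were looked for on both strands of the promoter windows, which run from 250 bases before to 50 bases after each transcript start in RefSeq (build GRCm38.p6). A GAS match lay in a window of 9.55% of all 27025 genes and an ISRE match in 3.99% (8.30% and 3.44% of all 32851 windows). All 8 members had a window, and 3 of them held a match: Irf1 held 1 GAS, Irf2 held 1 GAS and 1 ISRE, and Irf8 held 2 GAS. No match overlapped another. A match is a description of the letters, not of binding. The stretches of 29 bases around the matches are shown 5′ to 3′ with the element in capitals.
Irf1 GAS, chr11:53769914-53769942, + strand: acagcctgatTTCCCCGAAatgatgaggc
Irf2 GAS, chr8:46739511-46739539, + strand: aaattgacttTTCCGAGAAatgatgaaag
Irf2 ISRE, chr8:46739495-46739523, + strand: tggggaagtGAAAATGAAAttgacttttc
Irf8 GAS, chr8:120736177-120736205, + strand: caaaagtgatTTCTCGGAAagagagcgct
Irf8 GAS, chr8:120736195-120736223, + strand: aagagagcgcTTCAGAGAAggcggatttg

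The elements began 90 bases before the start in Irf1, 224 (GAS) and 241 (ISRE) bases before it in Irf2, and 171 and 153 bases before it in Irf8. The windows of Irf3, Irf4, Irf5, Irf7 and Irf9, and those at a later start of Irf1 and Irf8, held neither run of letters. For the pair of members with the strongest evidence below, Irf1 and Irf8, the 250 bases before the start are given in full with the same capitals.
Irf1 promoter, chr11:53769764-53770013, + strand: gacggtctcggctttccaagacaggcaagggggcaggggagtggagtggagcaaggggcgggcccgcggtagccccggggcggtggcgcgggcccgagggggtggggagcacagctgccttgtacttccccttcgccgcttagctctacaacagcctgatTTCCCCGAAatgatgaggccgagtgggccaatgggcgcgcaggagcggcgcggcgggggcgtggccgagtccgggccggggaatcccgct
Irf8 promoter, chr8:120736108-120736357, + strand: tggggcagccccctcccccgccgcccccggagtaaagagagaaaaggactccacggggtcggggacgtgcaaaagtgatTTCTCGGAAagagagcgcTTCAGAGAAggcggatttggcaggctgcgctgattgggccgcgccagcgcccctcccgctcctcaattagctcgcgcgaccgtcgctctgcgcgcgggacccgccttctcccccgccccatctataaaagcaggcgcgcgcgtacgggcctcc

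**Figure D1:**
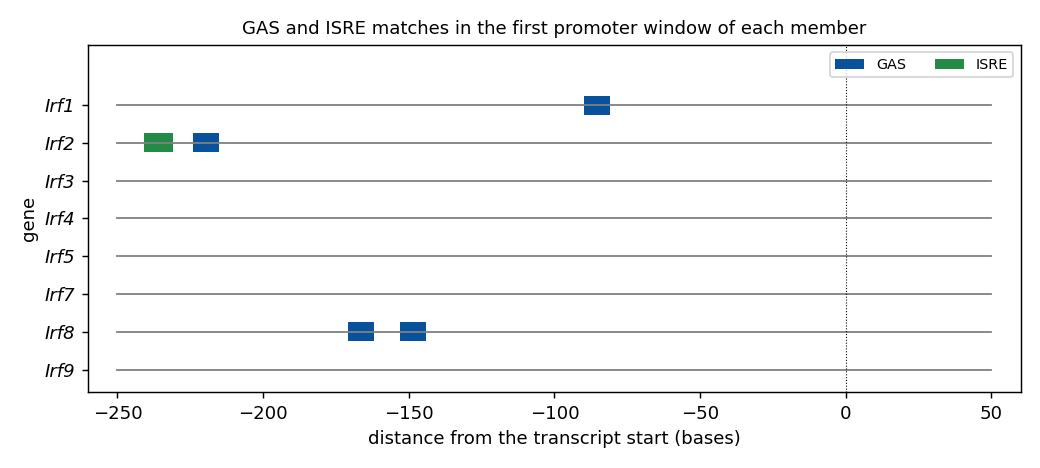
Position of GAS (blue) and ISRE (green) matches in the first promoter window of each member, with the distance from the transcript start in bases on the x axis and 1 line per gene. Matches are seen in Irf1, Irf2 and Irf8 and lie between 241 and 90 bases before the start.

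With IFNγ, DENR KO cells had lower levels of 5 of the 8 members, namely Irf1, Irf8, Irf2, Irf9 and Irf4, at 69.9%, 59.2%, 80.1%, 82.4% and 33.9% of control. No member was higher. Irf3, Irf5 and Irf7 did not pass the test. Over all 13928 genes tested, 2.25% were lower and 1.8% were higher in the same comparison (limma on log2(normalized count + 1), Benjamini-Hochberg adjusted p under 0.05). The median log2 fold change was −0.35 over the 8 members and −0.00036 over all genes. Both DENR KO samples lay below both control samples in 6 of the 8 members, against 20.8% of all genes. The same numbers of reads could come from fewer responding cells or from less RNA per cell, and bulk samples cannot tell these apart.

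**Figure D2:**
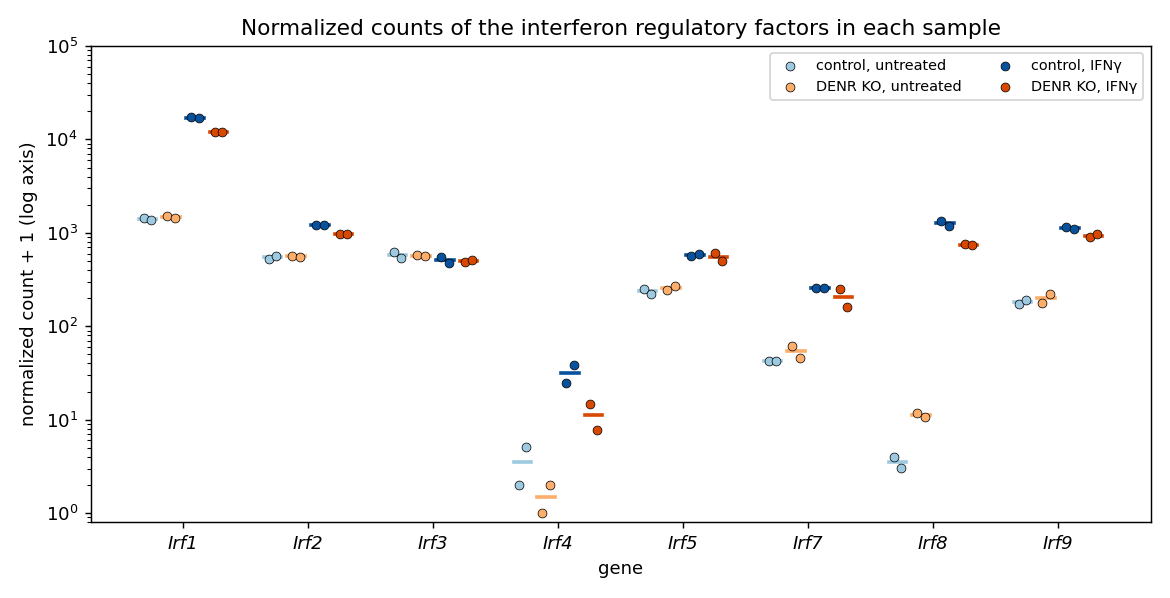
Normalized count + 1 (log axis) of the 8 members in each of the 8 samples, with points for samples and a bar for the mean of 2 samples. Irf1 was the highest member in every group, Irf8 and Irf4 were near 0 untreated, and with IFNγ the DENR KO samples of Irf1, Irf2, Irf4, Irf8 and Irf9 all lay below the control samples.

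Irf1 (ENSMUSG00000018899, chr11:53770014-53778374, + strand), an early IFNγ target that drives the later IFNγ genes, had normalized counts of 17208 and 16991 in control cells with IFNγ and of 11900 and 12009 in DENR KO cells with IFNγ. The DENR KO samples were about as close to each other as the control samples, and the groups did not overlap. The means were 17099 ± 154 and 11954 ± 77.6 (SD, n = 2), and the log2 fold change was −0.52 ± 0.048 (SE, adjusted p = 1.0e-07). In untreated cells Irf1 was already well expressed, with 1441 and 1373 in control and 1508 and 1428 in DENR KO cells. These groups overlapped, and the log2 fold change was 0.06 ± 0.071 (SE, adjusted p = 0.85). The 2 effects differed by −0.58 ± 0.078 on the log2 scale (SE, interaction over 8 samples, adjusted p = 1.8e-04).

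Irf8 (ENSMUSG00000041515, chr8:120736358-120756694, + strand) is known for directing macrophage and dendritic cell development and is also induced by IFNγ outside blood cells. It had 1340 and 1189 normalized counts in control cells with IFNγ and 766 and 732 in DENR KO cells. All DENR KO values were below all control values, with means of 1265 ± 107 and 749 ± 24.1 (SD, n = 2). The log2 fold change was −0.75 ± 0.080 (SE, adjusted p = 7.7e-07). Untreated, Irf8 was close to 0, with 3.02 and 2.04 in control and 10.8 and 9.83 in DENR KO cells. That is 21 reads in DENR KO and 5 in control cells, a ratio of 4.07. Its 95% exact interval of 1.49 to 13.8 covers counting error only and not the spread between samples. Irf8 was under the minimum mean of 10 for the test there, so a difference between the genotypes was not tested in the untreated samples alone. The direction in these untreated samples was opposite to that with IFNγ. The difference of the effects was −2.45 ± 0.29 (SE, limma interaction over 8 samples, adjusted p = 3.5e-05). Irf8 met the minimum mean of that fit only through its values with IFNγ, and its untreated log2 fold change there was 1.69. The difference thus rests largely on few untreated reads and is given as a description. With DESeq2 on the recovered reads the difference was −2.79 with an adjusted p of 0.0508, and with a pseudocount of 10 it was −1.44.

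Irf2 (ENSMUSG00000031627, chr8:46739732-46847458, + strand), the competitor of IRF1 at shared sites, had 1215 and 1226 normalized counts in control and 977 and 979 in DENR KO cells with IFNγ. The spread within each group was small beside the gap between the groups. The log2 fold change was −0.32 ± 0.072 (SE, adjusted p = 0.0089). Untreated values were 529 and 569 in control and 567 and 549 in DENR KO cells, which overlapped (log2 fold change 0.02, adjusted p = 0.96). The difference of the effects, −0.34, did not pass (adjusted p = 0.36), and with DESeq2 the adjusted p with IFNγ was 0.0501.

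Irf9 (ENSMUSG00000002325, chr14:55603571-55610030, + strand), the DNA-binding subunit of ISGF3, had 1166 and 1094 normalized counts in control and 900 and 961 in DENR KO cells with IFNγ. The groups did not overlap, and the log2 fold change was −0.28 ± 0.076 (SE, adjusted p = 0.037). This was the least stable of the calls on abundant members: the adjusted p was 0.060 with edgeR, 0.19 with DESeq2, 0.23 in the fit of all 8 samples, 0.19 without control sample 1 (−0.23) and 0.32 without DENR KO sample 1 (−0.23). Untreated values were 171 and 192 in control and 176 and 221 in DENR KO cells and overlapped (0.12, adjusted p = 0.86). The difference of the effects was −0.40 (adjusted p = 0.60).

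Irf4 (ENSMUSG00000021356, chr13:30749226-30766976, + strand), a factor of activated lymphocytes and plasma cells, was the least abundant member with IFNγ. It had 23.6 and 37.3 normalized counts in control and 13.8 and 6.84 in DENR KO cells, which is 60 and 21 reads in all. The groups did not overlap, but the samples of a group differed widely. The log2 fold change was −1.51 ± 0.43 (SE, adjusted p = 0.049), and the ratio of reads was 0.338 with a 95% exact interval of 0.195 to 0.564. The adjusted p was 0.083 with edgeR, 0.47 with DESeq2, 0.42 without control sample 2 (−1.19) and 0.27 without DENR KO sample 2 (−1.05). Untreated, Irf4 had 5 reads in control and 1 in DENR KO cells, a ratio of 0.194 with an interval of 0.0041 to 1.73, so no difference was detectable at this depth.

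Irf7 (ENSMUSG00000025498, chr7:141262706-141266481, − strand), which amplifies type I interferon production, had 257 and 259 normalized counts in control and 248 and 159 in DENR KO cells with IFNγ. Both DENR KO values were below both control values, but DENR KO sample 1 was close to control, and the log2 fold change of −0.37 ± 0.17 (SE) did not pass (adjusted p = 0.35). Without DENR KO sample 1 it was −0.69 with an adjusted p of 0.0049, and without DENR KO sample 2 it was −0.06. Untreated, Irf7 had 60.8 and 45.2 in DENR KO and 41.3 and 41.8 in control cells, and its log2 fold change of 0.33 did not pass (adjusted p = 0.76). The difference of the effects was −0.70 (adjusted p = 0.69).

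Irf5 (ENSMUSG00000029771, chr6:29526625-29541871, + strand), which acts below Toll-like receptors and MYD88, had 559 and 599 normalized counts in control and 607 and 503 in DENR KO cells with IFNγ. The groups overlapped (log2 fold change −0.07 ± 0.099 SE, adjusted p = 0.86). Untreated values were 253 and 220 against 246 and 269 (0.13, adjusted p = 0.82). Irf5 shares 411 exon bases, 14.15% of its exon length, with Tnpo3 on the opposite strand, and the strand setting of the counting is not given in the sources used here, so some of its reads may be those of Tnpo3.

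Irf3 (ENSMUSG00000003184, chr7:44997648-45002848, + strand), the factor that cells keep ready in the cytoplasm and activate after sensing viral nucleic acid, had 550 and 477 normalized counts in control and 490 and 509 in DENR KO cells with IFNγ. All 4 values lay in 1 range, and the log2 fold change was −0.04 ± 0.098 (SE, adjusted p = 0.93). Untreated values were 627 and 531 against 572 and 562 and overlapped as well (−0.02, adjusted p = 0.96). Smaller overlaps with exons of other genes were present in Irf1 (135 bases with Gm17334), Irf9 (123 with Rnf31, same strand), Irf3 (88 with Bcl2l12) and Irf7 (45 with Phrf1), and Irf8 lies within the annotated locus Gm20388 with 0 shared exon bases.

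Untreated cells thus gave no call. Of the 6 members tested there, 0 passed in limma, against 0.579% of all 13998 genes, and 0 had both DENR KO samples below both control samples, against 19.6% of all genes. edgeR and DESeq2 also called 0 of the members there, and 0 of the 6 had an unadjusted p under 0.05. In the fit of all 8 samples, 1 member was called untreated, Irf8, which met the minimum mean there only through its values with IFNγ. In the test of the difference between treatments, Irf1 and Irf8 passed, 2 of 8 members, against 0.429% of all genes. Irf8 entered that test, too, only through its values with IFNγ, and its untreated level rests on 21 (DENR KO) and 5 (control) reads, so its passing is given as a description. The difference of the effects was not shown for Irf2 and Irf9. Irf4 also entered that test only through its values with IFNγ. Its untreated level rests on 1 (DENR KO) and 5 (control) reads, so the test cannot decide whether its effects differ. Requiring also a log2 fold change beyond 0.5 left 3 members lower with IFNγ (Irf1, Irf8 and Irf4), against 1.03% of all genes.

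**Figure D3:**
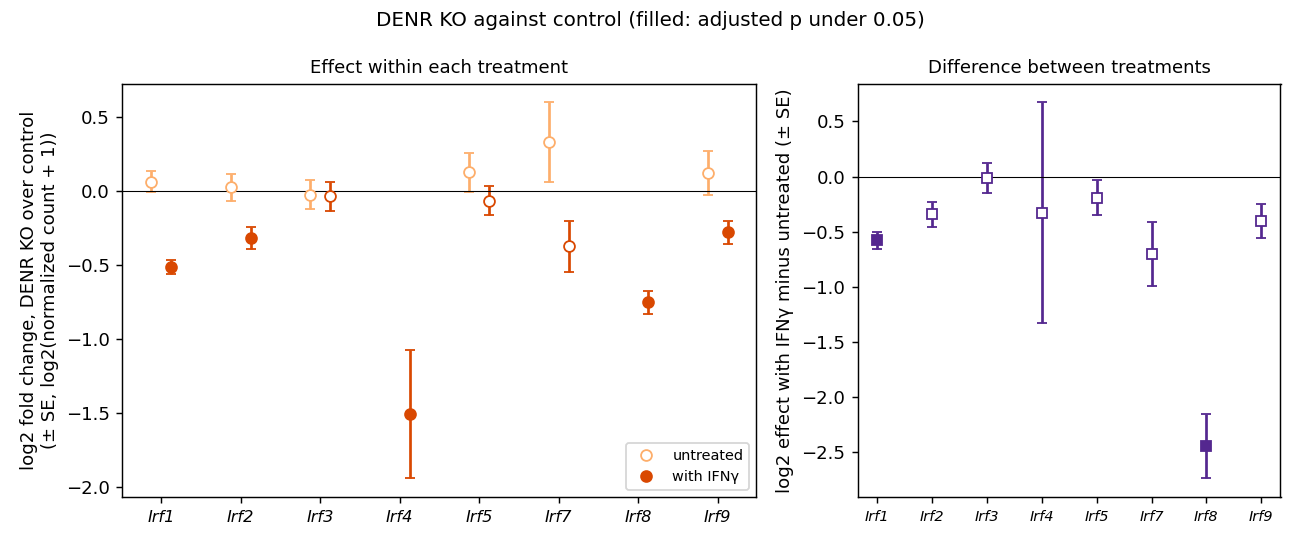
Left, effect of DENR KO on each member as a log2 fold change over control cells (± SE), untreated (light) and with IFNγ (dark); right, the effect with IFNγ minus the effect untreated (± SE), with filled symbols for an adjusted p under 0.05. Irf1 (−0.52) and Irf8 (−0.75) were lower with IFNγ. Irf4 and Irf8 have no untreated point because they were under the minimum mean there, so their right-hand points rest on few untreated reads.

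The tables of treated and untreated cells were normalized separately, so the level with IFNγ over the level untreated is a description with no test. In control cells it rose by at least 1 on the log2 scale in 7 of 8 members, against 3.04% of all genes, and in DENR KO cells in 6 of 8, against 2.38%. The median of all genes was −0.083 and −0.079 in the 2 genotypes.

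Irf8 had the highest ratio, with 2489 reads with IFNγ and 5 untreated in control cells (499 times, 95% exact interval 214 to 1538) and 1527 and 21 in DENR KO cells (72.6-fold on the normalized counts). Irf1 was 12.2-fold higher with IFNγ in control and 8.14-fold in DENR KO cells. Irf9 was 6.23-fold and 4.69-fold higher, and Irf7 6.21-fold and 3.84-fold. Irf5 was 2.45-fold and 2.15-fold higher. Irf2 was 2.22-fold higher in control and 1.75-fold in DENR KO cells, above the mark of 1 on the log2 scale in control cells only. The count of 6 members in DENR KO cells was 5 with a pseudocount of 10, where Irf4 was at 0.95, and without DENR KO sample 1 with IFNγ, where Irf5 was at 0.96. Irf4 rested on few reads, 60 over 5 in control and 21 over 1 in DENR KO cells, with an interval of 3.37 to 867 for the latter. Irf3 stood apart with ratios of 0.888 and 0.881, below 1 as the median of all genes was.

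**Figure D4:**
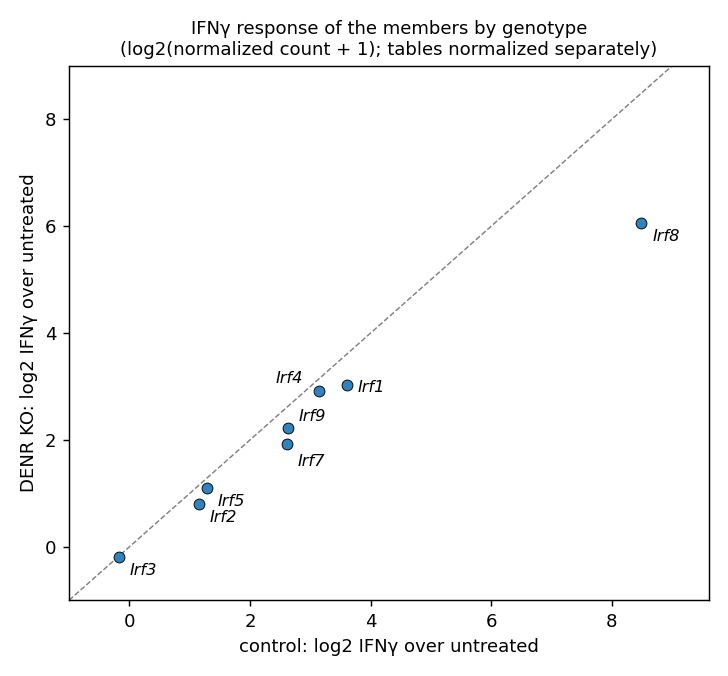
Level with IFNγ over level untreated, on the log2(normalized count + 1) scale, in control cells (x axis) and DENR KO cells (y axis), with 1 point per member and a dashed line of equal ratios. The members lie on or below the line, from Irf3 at −0.17 and −0.18 to Irf8 at 8.49 and 6.05.

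Divided by exon length, levels can be set roughly side by side between genes. The length counts every annotated exon of a gene and not those of a single transcript, so the order of members with close values is uncertain. In untreated control cells the order of normalized counts per kilobase was Irf1 (354 ± 12.1 SD, n = 2), Irf3 (168 ± 19.7), Irf5 (81.4), Irf2 (74.3), Irf9 (33.7), Irf7 (11), Irf4 (0.519) and Irf8 (0.359). The samples of Irf5 and Irf2, and those of Irf4 and Irf8, overlapped. With IFNγ the order in control cells became Irf1 (4301 ± 38.6), Irf9 (210), Irf5 (199), Irf8 (179), Irf2 (165), Irf3 (149), Irf7 (68.3) and Irf4 (6.20), where the samples of Irf9 and Irf5 overlapped. On this measure Irf3 went from the second place to the sixth, while its own untreated and treated samples overlapped. Irf8 went from the last to the fourth. The places from Irf9 (210) to Irf3 (149) lie close together and depend on the lengths used. In DENR KO cells with IFNγ, Irf1 (3007 ± 19.5) stayed first, and Irf8 (106) came sixth, after Irf5 (191), Irf9 (173), Irf3 (145) and Irf2 (132). The samples of Irf5 and Irf9 overlapped there too.

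The genes around the members were described through lists of pathway genes, by their role. Upstream of Irf1, 5 of 10 tested genes of the IFNγ receptor, its kinases, STATs and inhibitors were lower in DENR KO cells with IFNγ and 0 were higher, with a median log2 fold change of −0.20. Those that passed included the feedback inhibitors Socs1 (−0.75, adjusted p = 1.9e-08) and Socs3 (−0.62), the transcription factor Stat3 (−0.54) and the kinase Jak2 (−0.30, adjusted p = 0.0064). Jak1 (0.01) and the receptor chain Ifngr1 (−0.07) did not pass.

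Among partners and co-regulators of the IRF proteins, 3 of 9 tested genes were lower and 1 was higher with IFNγ, with a median of 0.09. Batf2, a partner of IRF1 in activated macrophages, was lower (−0.89, adjusted p = 9.5e-09), as was the ISGF3 subunit Stat2 (−0.52). Irf2bp2, a co-repressor that binds IRF2, was the 1 higher gene (0.31, adjusted p = 0.0098). The coactivator Ep300 (0.11) and Irf2bpl (0.21) did not pass.

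Among the sensors, adaptors and kinases that lead to IRF3, IRF5 and IRF7, 2 of 16 tested genes were lower and 0 were higher with IFNγ, with a median of −0.11. The 2 genes were the Toll-like receptor adaptor Myd88 (−0.48, adjusted p = 0.0015) and Tmem173, which encodes STING (−0.47, adjusted p = 1.8e-04). Irak1 (0.03) and Traf3 (0.02) did not pass.

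Among genes known to depend on IRF1, 14 of 18 tested were lower and 0 were higher with IFNγ, with a median of −0.43. They included Ido1, which breaks down tryptophan (−1.41), the CXCR3 ligands Cxcl9 (−1.29) and Cxcl10 (−1.22), and Cd274, the PD-L1 gene (−0.83, adjusted p = 8.4e-09). The immunoproteasome gene Psmb8 (−0.11) and Lif (−0.14) did not pass. Among genes known to depend on ISGF3, 4 of 16 tested were lower and 0 were higher, with a median of −0.29. The 4 genes were Oasl2 (−0.67), Rtp4 (−0.63), Isg15 (−0.57) and Xaf1 (−0.55), and Bst2 (−0.28) and Ddx58 (−0.26) did not pass. The shares can be read against 2.25% lower over all genes. Of the 19 genes for type I and III interferons, the known outputs of IRF3 and IRF7, 0 had a mean of at least 10 in either table, so none could be tested.

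**Figure D5:**
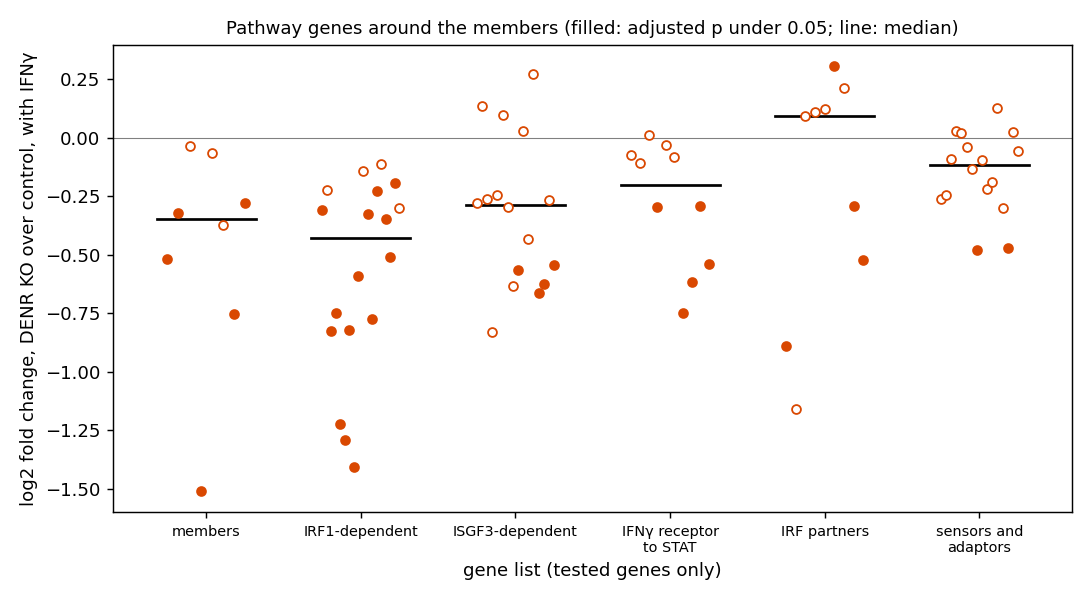
Effect of DENR KO with IFNγ, as a log2 fold change over control cells, for the 8 members and the tested genes of 5 lists, with filled points for an adjusted p under 0.05 and a line for the median. The medians were −0.35 for the members, −0.43 for IRF1-dependent genes and −0.29 for ISGF3-dependent genes, while IRF partners had a median of 0.09.

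In untreated cells 0.579% of all 13998 genes passed in limma, a share at which lists this small may hold 0. Of these 5 lists 0 genes passed, of 15, 14, 10, 8 and 16 tested in the IRF1-dependent, ISGF3-dependent, upstream, partner and sensor lists. edgeR and DESeq2 also called 0 of them, and at an unadjusted p under 0.05 there were 2, 1, 0, 2 and 0 genes. In the test of the difference between treatments, the effect was lower with IFNγ in 6 of 18 IRF1-dependent genes, against 0.429% of all 13998 genes. Among the 6 were Cxcl10 (−1.18), Nos2 (−1.08), Nlrc5 (−0.48) and Gbp2 (−0.48). The count for that list was 2 with edgeR and 5 with DESeq2. It was lower in 2 of 10 upstream genes (Socs1 and Stat3), in 1 of 9 partners (Batf2, −0.997) and in 1 of 16 sensors (Tmem173, −0.59). It passed in 0 of 16 ISGF3-dependent genes with limma, edgeR and DESeq2, with 6 at an unadjusted p under 0.05 and a median of −0.43. At 0.429% of all genes, a list of 16 may also hold 0. Of these 16 genes, 14 could be tested untreated, as could 15 of the 18 IRF1-dependent genes and 8 of the 9 partners. The others entered the test of the difference only through their values with IFNγ.

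For the 7 members with enough reads, the genes with the most similar profile were found among 10214 genes. These candidates had a highest group mean of at least 100 both with IFNγ and untreated. The measure was the root mean square difference of log2 values over the 8 samples, each profile centred on its own mean. The values describe these samples only, and all profiles share the step between treated and untreated cells. Irf1 was closest to the chemokine gene Cxcl1 (0.12), the immunoproteasome gene Psmb9 (0.13) and Parp9 (0.15). Irf2 was closest to Nampt (0.043), and Irf9 to Tapbpl (0.085) and Tap2 (0.13), which act in peptide loading. Irf7 was closest to Ube2l6 (0.18), the enzyme that conjugates ISG15, and Irf5 to Tmco4 (0.048). Irf3 was closest to Eipr1 (0.028), a gene of vesicle transport with group means of up to 293. For Irf8 the nearest candidate was Cxcl10 at 0.67, followed by Gbp2 (0.75) and Gbp7 (0.76). Irf8 itself had untreated means of 2.53 in control and 10.3 in DENR KO cells. Genes as low as that untreated were not candidates, so whether Irf8 has a closer match among them was not examined.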

How the data were processed

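Poly-A RNA of control and DENR KO MC38 cells was sequenced by the study, with 2 samples in each of 4 groups. The authors deposited 2 tables, 1 per treatment, with a normalized signal per gene and sample (here called a normalized count): reads on the gene over the size factor of that sample. They also hold the authors' own fold changes and p-values, which were not used. Per the submitters' processing notes, HISAT2 2.0.5, StringTie 1.3.3b, featureCounts 1.5.0-p3 and DESeq2 1.20.0 were used. These notes name build mm9, but the coordinates and lengths of the Irf genes in the tables match GRCm38 (GENCODE M21), which is used here. The strand setting is not given in the sources used here. Reads could be recovered, since 100% of the deposited values in each sample came to a whole number of reads (tolerance 0.001). The tests had been planned for either unit, and the one for normalized values was the main test.

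limma 3.58.1 (R 4.3.3) was run with an intensity trend and robust moderation on log2(value + 1). Genes entered a fit where their mean over its samples was 10 or more: 13928 with IFNγ, 13998 untreated, and 13998 of the 20432 loci in both tables for the interaction over 8 samples. Fold changes on this scale understate changes of low genes. P-values were two-sided and were adjusted by Benjamini-Hochberg over all genes tested, with a call under 0.05. Alternatives were edgeR 4.0.16 and DESeq2 1.42.0 on the recovered reads, pseudocounts of 0.1 and 10, no filter, a mean of at least 100, scaling to totals, centring on medians, a fit of all 8 samples, a log2 fold change beyond 0.5, a replicate block, and leaving out each sample. Each test was also run on simulated data with the same spread set for all genes, so those runs do not measure error rates in these samples. Intervals of read ratios are 95% exact conditional binomial intervals and cover counting error only.

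The members and lists were chosen with earlier results of these data known. Of each list, up to 4 genes that passed, with the largest change among those with a mean of at least 100, and up to 2 with the highest mean that did not pass were named. The lists were genes upstream of Irf1, IRF partners, sensors and adaptors, IRF1-dependent and ISGF3-dependent genes, type I and III interferon genes, and markers of other cell types. For members with a mean of at least 100 over the 8 samples, up to 3 genes with the most similar profile were named. Promoter sequences are from RefSeq, and positions are 1-based. Some genes chosen in these ways are not reported here.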

Additional observations from a re-analysis of the deposited data

Results flagged for a closer look

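The DENR KO effect on Irf1 differed between the treatments by −0.58 on the log2 scale (±0.078 SE, limma interaction over 8 samples, adjusted p = 1.8e-04). Both DENR KO samples were below both control samples with IFNγ, and the groups overlapped untreated.

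The DENR KO effect on Irf8 differed by −2.45 (±0.29 SE, adjusted p = 3.5e-05). Both DENR KO samples were below both control samples with IFNγ and above both of them untreated, where the values rest on 21 reads in DENR KO and 5 in control cells. Irf8 met the minimum mean of this test only through its values with IFNγ. The difference was −2.79 with DESeq2 (adjusted p = 0.0508) and −1.44 with a pseudocount of 10.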

How the results depend on the processing

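Irf1 and Irf8 kept their call and direction with IFNγ under all 15 alternatives run, with log2 fold changes of −0.53 to −0.50 and −0.84 to −0.67. The number of members called with IFNγ was 5, and it was 3 with edgeR, 2 with DESeq2, 3 with a log2 fold change beyond 0.5, 3 in the fit of all 8 samples and 4 to 5 without any 1 sample. Untreated it was 0, and 1 in the fit of all 8 samples. For the difference between treatments it was 2, and 1 with DESeq2. The genes called with IFNγ were 565 in all, against 215 with the fold rule, 345 with DESeq2 and 427 to 648 without any 1 sample. Untreated they were 81, against 30, 32 with edgeR, 50 with DESeq2 and 35 to 91 without any 1 sample. For the difference they were 63, against 37 to 93 without any 1 sample. The causes of these shifts were not tested.

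With a replicate block the calls were 1455 with IFNγ, 257 untreated and 102 for the difference, and it changed no call of a member (Irf1 −0.52, adjusted p = 1.0e-18 with IFNγ). The labels do not say what the numbers share. Deviations of samples with the same number correlated at 0.223 with IFNγ and 0.0472 untreated.

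Signs changed for values that had not passed the test. Without any 1 sample, Irf3 with IFNγ ran from −0.14 to 0.065 and Irf5 from −0.20 to 0.069, and untreated Irf2 ran from −0.029 to 0.077, Irf3 from −0.14 to 0.095 and Irf9 from −0.045 to 0.29. Untreated Irf2 was −0.0034 when centred on medians. The difference for Irf4 was −0.33, but 0.55 with edgeR, 0.80 with DESeq2, 1.11 with a pseudocount of 0.1 and −0.9996 to 0.34 without any 1 sample. For Irf3 it was 0.0067 when scaled to totals, 0.0016 when centred on medians and −0.13 to 0.11 without any 1 sample, and for Denr 0.0026 when scaled to totals and −0.096 to 0.063 without any 1 sample. Irf4 and untreated Irf8 rest on 1 to 60 reads per group.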

Other observations

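DENR acts in translation, which these RNA counts do not measure. In the GENCODE M21 transcripts, 7 of the 8 members have at least 1 annotated coding transcript with an upstream open reading frame that starts with ATG and ends within the 5′ UTR, against 59.1% of 11464 genes tested with a 5′ UTR. Irf7 was the exception, with 0 in its 3 transcripts. Under this rule a gene with more annotated transcripts has more chances to hold a frame, and the number of transcripts was not matched. Over the 8 members, 12 of 33 transcripts held such a frame. The share over all transcripts was not computed, and the 59.1% counts genes, so it cannot be set beside this count. The transcript of Irf8 with the most held 8 in a 5′ UTR of 589 bases, while its other 3 transcripts held 0. An ATG with a stop codon as the very next codon was present in a transcript of 3 members (Irf5, Irf8 and Irf9), against 12.1% of genes. Irf1 had an upstream frame in 2 of 7 transcripts and Irf2 in 1 of 5. Which transcripts MC38 cells use was not measured here.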
